A study of Mus musculus with 2 samples.

Results

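The regions described here are 4055 peaks of 5-hydroxymethylcytosine (5hmC) that stood in the 5hmC_C list of mouse embryonic stem (ES) cells and had no counterpart nearby in the 5hmC_V list. They were chosen by a rule on measured values. A peak had to lie on chromosomes 1 to 19, hold at least 40 and fewer than 100 sequence tags, and have no 5hmC_V peak within 5000 bp of either edge. The 5hmC_C list holds 63834 peaks, of which 15024 lay on these chromosomes in this tag range. Of those 15024, 4055 passed the distance rule (27.0%), 9139 overlapped a 5hmC_V peak by at least 1 bp, and 1830 had one within 5000 bp without overlap. Among autosomal 5hmC_C peaks of any tag count, 43.1% had no 5hmC_V peak within 5000 bp. The rule used both lists, so nothing is read from these shares. The regions are called unmatched peaks below, and the 9139 are called overlapping peaks.

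5hmC is made when Tet dioxygenases oxidise 5-methylcytosine, and it is an intermediate on the path by which methylated cytosine can be lost. ES cells express Tet enzymes and carry 5hmC at many distal regulatory elements and along gene bodies. Ascorbic acid (AA, vitamin C) is a reducing agent that supports the activity of iron-dependent dioxygenases such as the Tet enzymes.

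Both libraries came from genomic DNA of 129SvEv mouse ES cells, from which sheared fragments bearing 5hmC were captured after biotin labelling. The 5hmC_V cells had been given 100 µM AA for 24 h. The 5hmC_C label names no incubation and was taken as the group without AA, because the series compares cells with and without it. Each group is 1 library without replicates and without an input library, so no test between the groups was made. In 2 of 2 lists the run name in the header is that of the other sample, and every direction below holds only for the lists as recorded. If the headers are right, the unmatched peaks belong to the AA-treated cells. Kept tags numbered 18398162 for 5hmC_C and 11907082 for 5hmC_V, a ratio of 1.55, and the estimated fragment lengths were 165 and 229 bp. All positions are on mouse build mm9. They are given without gene names or sequence, since no genome or annotation of that build was used.

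The unmatched peaks, rich in tags by the rule, were low in fold enrichment. Their median fold enrichment, the authors' ratio of tags to the caller's background within the same list, was 4.93 (95% interval of the median over peaks 4.87 to 4.97, quartiles 4.27 and 5.77). Overlapping peaks of the same tag range had a median of 6.09 (6.02 to 6.14), and all autosomal 5hmC_C peaks one of 6.99. Of the 4055 unmatched peaks, 3705 (91.4%, Clopper-Pearson 90.5% to 92.2%) lay below that median of all peaks, against 63.2% of the overlapping peaks. Their tag count was set by the rule. All autosomal 5hmC_C peaks had a median of 28 tags, so they are not matched to the unmatched peaks in tags. A fold of at least 10 was reached by 42 unmatched peaks (1.04%, 0.747% to 1.4%) and by 980 overlapping ones (10.7%, 10.1% to 11.4%), beside 10.1% of all autosomal 5hmC_C peaks. The caller gave 624 unmatched (15.4%) and 4903 overlapping peaks (53.6%) a p of 1e-10 or less, beside 18% of all autosomal 5hmC_C peaks. These values come from the same tags that the rule used, and they describe the classes. Intervals cover counting error, or the error of a median taken over peaks, and peaks of 1 library are not replicates.

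The lower fold was seen in each of the 5 tag classes. At 40 to 44 tags the median fold was 5.33 for 1108 unmatched and 6.60 for 2083 overlapping peaks. At 50 to 59 tags it was 4.87 and 6.22, and at 80 to 99 tags 4.14 and 5.22. In both classes the fold fell as tags rose. The upper quartile of the unmatched peaks lay below the median of the overlapping peaks in all 5 classes.

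**Figure D1:**
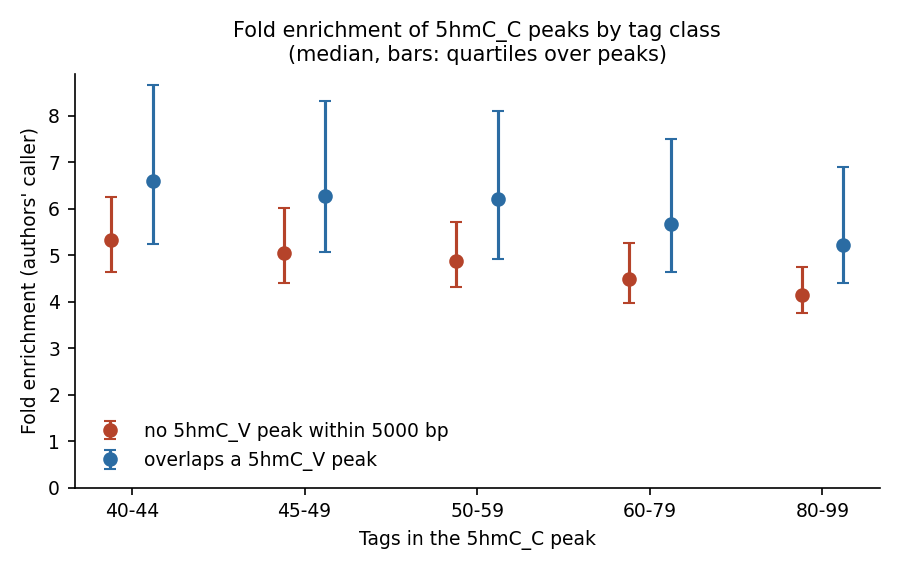
Median fold enrichment (authors' caller, points) with quartiles over peaks (bars) of 5hmC_C peaks on chromosomes 1 to 19 in 5 tag classes, for peaks with no 5hmC_V peak within 5000 bp (red) and peaks that overlap one (blue). The red medians fall from 5.33 to 4.14 and the blue ones from 6.60 to 5.22.

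Over the whole tag range the classes had like median lengths, 1289 bp for unmatched peaks (quartiles 1122 and 1534 bp) and 1287 bp for overlapping peaks. Within each of the 5 tag classes the unmatched peaks were longer, from 1100 against 1058 bp at 40 to 44 tags to 2073 against 1911 bp at 80 to 99 tags. The median densities of unmatched and overlapping peaks were 39.3 and 41.6 tags per kb. Dividing the density of a peak by its fold gives an implied background, an index only, since the caller takes the fold at the summit and the density is a mean over the peak. Its median was 8.01 tags per kb for unmatched and 6.73 for overlapping peaks, beside 6.81 kept tags per kb over the caller's effective genome. The index was above that genome mean in 2953 unmatched peaks (72.8%) and 4434 overlapping peaks (48.5%), beside 23.9% of all autosomal 5hmC_C peaks. It was above 2 times the mean in 55 and 63 peaks. An index below the genome mean does not show a local background below it, since the index is not on the caller's scale. Peaks with a 5hmC_V peak close by but no overlap were like the unmatched ones, with a median fold of 4.94 and an index of 8.15.

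The share of unmatched peaks changed with the fold and with the number of peaks around. Below a fold of 4, 42.6% of the 1491 peaks of this tag range were unmatched (40.1% to 45.1%). This share was 31.0% at folds of 5 to 6, 20.2% at 6 to 8 and 4.07% (2.95% to 5.47%) at 10 or more. By implied background it went from 10.3% under 5 tags per kb to 36.0% at 10 or more. That index has the fold as its divisor (Spearman correlation of -0.83 with it over the unmatched peaks), so this restates the trend with fold for the most part. By the score, 10 times the −log10 of the caller's p, it went from 44.4% at scores of 50 to 60 to 0.973% at 200 or more, where 8 of 822 peaks were unmatched. Peaks in sparse neighbourhoods nearly always had a counterpart. With fewer than 5 other 5hmC_C peaks within 250 kb, 13 of 436 were unmatched (2.98%, 1.60% to 5.04%), and with 5 to 9 it was 101 of 1237 (8.16%). With 10 to 19 neighbours the share was 29.6%, with 20 to 29 it was 30.1%, and with 30 or more 24.0%. The median implied background of the unmatched peaks was 4.79 tags per kb in the sparsest class and 8.27 at 20 to 29 neighbours. Sparse neighbourhoods and low values of this index thus went together. Their separate parts in the share were not tested.

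**Figure D2:**
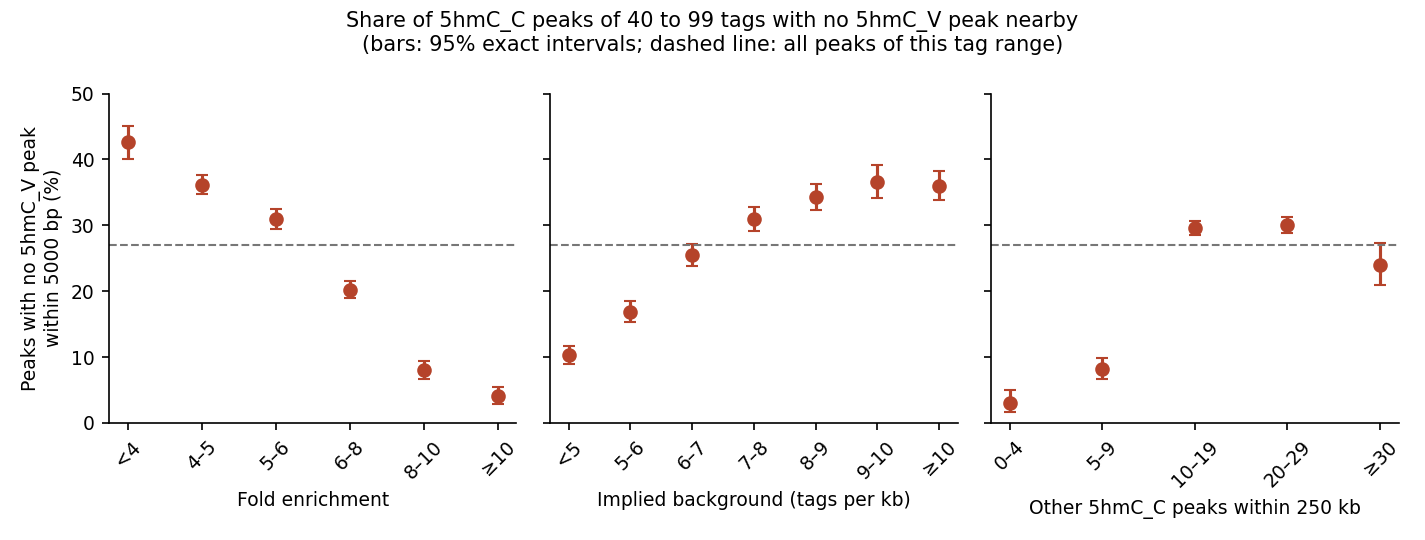
Percentage of 5hmC_C peaks of 40 to 99 tags on chromosomes 1 to 19 that had no 5hmC_V peak within 5000 bp, by fold enrichment (left), implied background in tags per kb (middle) and number of other 5hmC_C peaks within 250 kb (right), with 95% exact intervals. The dashed line is the 27.0% of the whole tag range. The share falls from 42.6% to 4.07% with fold and goes from 2.98% to 30.1% and then 24.0% with the number of neighbours.

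Among peaks of like fold, the classes differed less in density at low folds than at high ones. At folds of 5 to 6 the medians were 39.6 and 40.2 tags per kb and 7.33 and 7.37 tags per kb of implied background. At folds of 4 to 5 they were 38.9 and 39.7, and 8.67 and 8.80. At folds of 8 to 10 the unmatched peaks had 39.4 tags per kb and the overlapping ones 43.9, with implied backgrounds of 4.61 and 4.99, and at 10 or more the densities were 43.4 and 46.6. Median lengths were 1239 bp for unmatched and 1331 bp for overlapping peaks at folds of 5 to 6, and 1327 and 1413 bp at 4 to 5.

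A missing 5hmC_V call is not a measured absence of 5hmC, and its tag count is not in the lists. Scaled by kept tags to the depth of the 5hmC_V library, 40 tags become 25.9 and 99 tags become 64.1. The scaled density of the median unmatched peak would be 25.5 tags per kb, at or above 44.4% of the called 5hmC_V peaks, whose median was 26.4. For the median overlapping peak the scaled density was 26.9, at or above 53.2% of them. By scaled tags, the median unmatched peak had 32.4, at or above 60.2% of the called 5hmC_V peaks. The median overlapping peak had 34.3, at or above 63.7% of them. Scaled densities under 20.1, the lowest 10% of called 5hmC_V peaks, were found in 91 unmatched (2.24%) and 78 overlapping peaks (0.853%). This scaling takes no account of the local background or of the longer fragments of the 5hmC_V library. The parts of depth, background and fragment length in the missing calls were not tested.

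**Figure D3:**
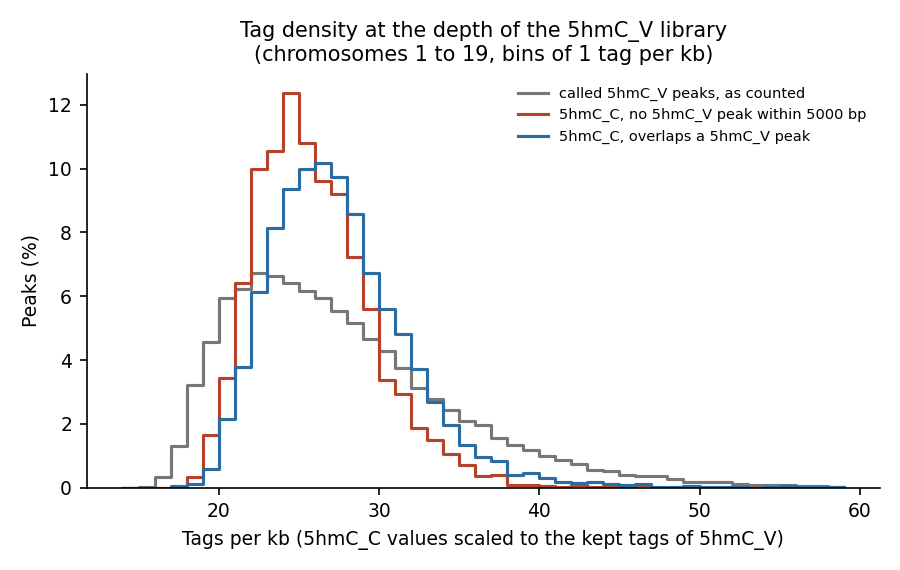
Distribution (percentage of peaks per bin of 1 tag per kb) of tag density on chromosomes 1 to 19 for called 5hmC_V peaks as counted (grey) and for 5hmC_C peaks of 40 to 99 tags scaled to the kept tags of 5hmC_V, unmatched (red) and overlapping (blue). The 3 curves overlap, with medians of 26.4, 25.5 and 26.9 tags per kb, and peaks above 60 are not drawn.

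Isolation held only with respect to the 5hmC_V list. The nearest 5hmC_V peak lay a median of 12229 bp away (quartiles 8088 and 19803 bp), where 5001 bp is the least the rule allows. It was over 10 kb away for 2503 unmatched peaks (61.7%), over 20 kb for 995 (24.5%), over 50 kb for 103 (2.54%) and over 100 kb for 10 (0.247%). Among all autosomal 5hmC_C peaks, overlapping ones included, these shares were 30.4%, 16.8%, 4.62% and 1.28%. The rule leaves out gaps of 5000 bp or less, so the unmatched peaks and all peaks are not on a like footing. Of the 26793 autosomal 5hmC_C peaks of any tag count that met the distance rule, 18891, 10419, 2872 and 798 lay that far away. Those are larger shares than among the unmatched peaks at each of these distances. The nearest other 5hmC_C peak lay a median of 10701 bp away, against 11084 bp for overlapping peaks. Just 97 unmatched peaks (2.39%) had no other 5hmC_C peak within 50 kb, against 640 overlapping ones (7.0%). The unmatched peaks had a median of 19 other 5hmC_C peaks and 18 5hmC_V peaks (those within 5000 bp not counted) within 250 kb, and overlapping peaks had 18 and 17. The mean number of 5hmC_V peaks within 250 kb was higher around unmatched peaks on 19 of 19 chromosomes, and that of 5hmC_C peaks on 18 of 19. Leaving out 5hmC_V peaks within 5000 bp takes peaks from the counts of overlapping peaks and none from those of unmatched ones. The 5hmC_V counts are thus not on a like footing, and no excess is read from them.

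**Figure D4:**
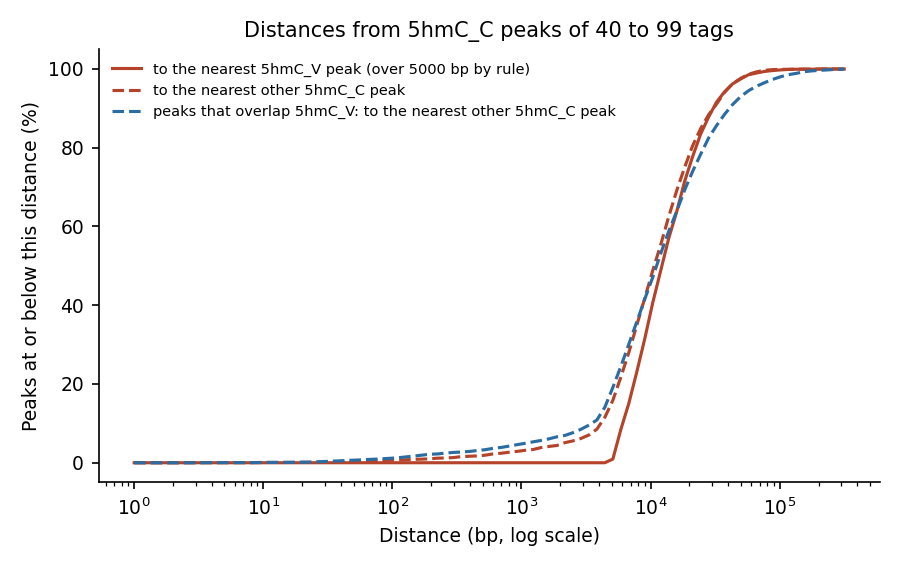
Cumulative percentage of peaks by distance in bp (log scale) from unmatched 5hmC_C peaks to the nearest 5hmC_V peak (red, solid) and to the nearest other 5hmC_C peak (red, dashed), and from overlapping peaks to the nearest other 5hmC_C peak (blue, dashed). The solid line starts at 5001 bp by the rule, and the medians are 12229, 10701 and 11084 bp.

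Peaks around the unmatched ones were shared between the lists about as often as peaks elsewhere. Of the 13218 5hmC_C peaks counted at 10 to 50 kb from an unmatched peak, 42.9% overlapped a 5hmC_V peak, and of the 26786 around overlapping peaks 43.8% did. At 50 to 250 kb the shares were 41.2% and 43.3%, beside 43.3% of all autosomal 5hmC_C peaks. A neighbour of several peaks is counted for each of them, so these shares carry no interval.

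The unmatched peaks came in every chromosome, at 19.7% to 33.8% of the peaks of their tag range. Chromosome 19 had the highest share, with 126 of 373 (33.8%, 29.0% to 38.8%), followed by chromosome 11 with 284 of 874 (32.5%, 29.4% to 35.7%), chromosome 17 with 213 of 690 (30.9%) and chromosome 5 with 293 of 953 (30.7%). Chromosome 3 had the lowest, with 124 of 630 (19.7%, 16.6% to 23.0%), and next came chromosome 13 with 137 of 608 (22.5%). The interval of chromosome 3 did not meet those of chromosomes 19, 11, 17 and 5, while the 4 highest overlapped one another. These intervals cover counting error over peaks of 1 library and are no test between chromosomes. In number, chromosome 8 led with 463 unmatched peaks of 1612 (28.7%) or 3.51 per Mb. Chromosome 1 had 431 of 1818 (23.7%) or 2.19 per Mb. Over all autosomes the share was 27.0%, so these high numbers go with many peaks in the tag range. Chromosome 3 had 0.778 per Mb. The median fold of the unmatched peaks was lower than that of the overlapping peaks on 19 of 19 chromosomes and their implied background higher on 19 of 19. The unmatched medians kept to a narrow range, from 4.62 on chromosome 19 to 5.13 on chromosome 18, where the overlapping ones ran from 5.56 on chromosome 8 to 7.01 on chromosome 3. Across the 19 chromosomes, the share went with the median implied background of all 5hmC_C peaks, with a Pearson r of 0.66 and a Spearman rho of 0.77. The points share 1 library, its depth and its peak calling, and the correlation is a description. Implied background has the fold as its divisor, so its 19 of 19 and this correlation are not independent of the fold.

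**Figure D5:**
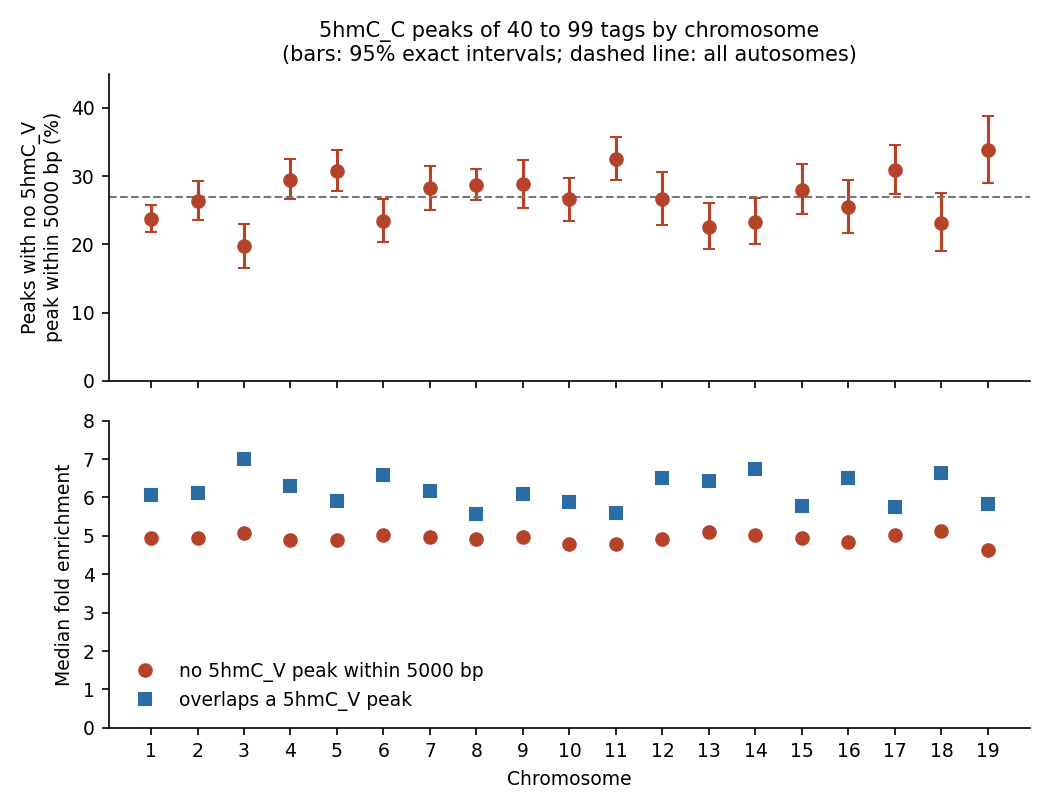
For each of chromosomes 1 to 19, the percentage of 5hmC_C peaks of 40 to 99 tags with no 5hmC_V peak within 5000 bp with 95% exact intervals (top, dashed line 27.0% for all), and the median fold enrichment of unmatched (red circles) and overlapping peaks (blue squares, bottom). Shares run from 19.7% on chromosome 3 to 33.8% on chromosome 19, and the circle lies below the square on every chromosome.

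Toward the distal chromosome ends the unmatched peaks were more frequent. The last 10 Mb before the end of the last peak held 576 of them (14.2%, 13.1% to 15.3%), against 11.4% (10.8% to 12.1%) of the overlapping peaks. The first 10 Mb held 146 (3.6%, 3.05% to 4.22%) against 5.36% (4.91% to 5.84%). Peaks with a 5hmC_V peak within 5000 bp but no overlap had 14.9% in the last and 4.48% in the first 10 Mb. The distal excess was thus not particular to the unmatched peaks. All autosomal 5hmC_C peaks had 9.47% and 5.78%. Of the peaks of this tag range, 30.4% were unmatched in the distal stretches, 20.3% in the first 10 Mb and 26.9% between. The median implied background of that tag range was 8.05, 6.66 and 7.24 tags per kb in the same order.

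Of the 2416 windows of 1 Mb with a peak in either list, 1210 held an unmatched peak. The 319 windows with 5 or more held 56.2% of the unmatched peaks. No like figure was worked out for the overlapping peaks, so clustering of the unmatched peaks cannot be read from this. The fullest window began at 153 Mb on chromosome 4, with 15 unmatched and 9 overlapping peaks. Windows at 109 and 127 Mb on chromosome 8 had 14 unmatched peaks each, beside 15 and 13 overlapping ones. On chromosome 11 the window at 119 Mb had 13 unmatched peaks out of 19 in the tag range, and on chromosome 4 that at 137 Mb had 12 out of 17. These windows were not poor in 5hmC_V peaks, with 32 at 153 Mb and 28 at 137 Mb on chromosome 4 and 27 at 119 Mb on chromosome 11. The 3 unmatched peaks with most others within 1 Mb, 24 each, lay side by side on chromosome 8 (108463238 to 108464532, 108519264 to 108520824 and 108563836 to 108564871). They held 85, 57 and 43 tags at folds of 3.69, 5.25 and 3.37.

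Between 1 called 5hmC_V peak and the next, most unmatched peaks stood alone of their kind. There were 3410 such stretches with an unmatched peak, 2875 with 1, 441 with 2 and 94 with 3 or more. The median stretch was 45014 bp long. In 1327 cases (32.7%) the unmatched peak was the only 5hmC_C peak of any tag count there. A stretch of 111 kb on chromosome 9 held 5 unmatched peaks, between 43556168 and 43607634, with 73, 50, 49, 98 and 64 tags and folds of 4.00 to 5.00. A stretch of 117 kb on chromosome 8, between 79926606 and 80016558, also held 5, with 94, 78, 53, 97 and 54 tags at folds of 3.59 to 4.98. Of these 10 peaks, the folds of 3.59, 3.96, 4.0 and 4.15 lay below the lower quartile of the class, 4.27.

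A fold of at least 10 was rare among the unmatched peaks. The 42 of them lay on 16 chromosomes and held 40 to 66 tags. Their median implied background, which the choice by fold makes low, was 3.65 tags per kb, beside 3.94 for overlapping peaks of such fold. Their nearest 5hmC_V peak was a median of 22067 bp away, against 12137 bp for the other 4013 unmatched peaks, while over all 4055 the distance and the fold had a Spearman correlation of just 0.06. The first was on chromosome 12 (20423245 to 20424394), with 57 tags (exact Poisson interval 43.2 to 73.9) in 1150 bp at 16.29-fold, and no 5hmC_V peak within 74.7 kb. The second, on chromosome 8 (45606296 to 45607211), had 40 tags at 15.15-fold, and the third, on chromosome 5 (22118410 to 22119304), 40 tags at 14.76-fold. The third had no other 5hmC_C peak within 50 kb either. At 40 tags (28.6 to 54.5), these 2 stand on the lower bound of the rule. Next came chromosome 1 (130132711 to 130133755), with 66 tags (51.0 to 84.0) at 14.09-fold, and chromosome 8 (38585688 to 38586575), with 43 tags at 13.34-fold.

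The highest score among the unmatched peaks, 246.31, belonged to the peak at 130132711 on chromosome 1, followed by the one at 20423245 on chromosome 12 with 232.37 and the one at 38585688 on chromosome 8 with 225.9. A pair of further peaks completed the first 5. On chromosome 13 (68147157 to 68148740) 67 tags scored 225.13 at 8.84-fold, and on chromosome 11 (26686472 to 26687694) 49 tags scored 219.83 at 11.56-fold. The chromosome 11 peak had no unmatched peak within 1 Mb and no 5hmC_V peak within 52.6 kb. Across all 4055, the median score was 71.2 and the cutoff of the caller 50, so these 5 lie far above most of the class.

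The peaks farthest from any 5hmC_V peak lay in long stretches that still held other 5hmC_C peaks. The farthest was on chromosome 7 (76869100 to 76870223), with 44 tags at 10.66-fold, 230 kb from the nearest 5hmC_V peak. The stretch between the flanking 5hmC_V peaks was 499 kb long there and held 6 other 5hmC_C peaks, 1 of them 541 bp away. The next was also on chromosome 7 (24142250 to 24143861), with 63 tags (48.4 to 80.6) at 10.73-fold in a stretch of 393 kb with 2 other 5hmC_C peaks. On chromosome 14 (89253951 to 89255201) a peak of 65 tags at 9.47-fold lay in a stretch of 425 kb with 4 others. These 3 peaks had implied backgrounds of 3.67, 3.64 and 5.49 tags per kb. The other 2 of the 5 farthest, on chromosome 14 (118183110 to 118185381, 80 tags) and chromosome 2 (52221531 to 52223125, 54 tags), had folds of 4.02 and 5.88. Their stretches of 369 and 356 kb held 8 and 13 other 5hmC_C peaks of at least 15 and 13 tags.

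Peaks with most tags were long. There were 8 with 99 tags, the most the rule allows, and the first 5 were on chromosomes 1 (138066994 to 138068925), 5 (74593185 to 74595479), 6 (121039368 to 121041541) and 8 (49304469 to 49306404 and 127255475 to 127258006). Their lengths ran from 1932 to 2532 bp and their folds from 3.49 to 5.80, with densities of 39.1 to 51.2 tags per kb. The longest unmatched peaks were on chromosome 8 (125334464 to 125337258, 2795 bp, 96 tags, 3.92-fold), chromosome 16 (91551777 to 91554511, 2735 bp, 95 tags, 3.33-fold) and chromosome 7 (75293147 to 75295859, 2713 bp, 90 tags, 3.45-fold). The lowest folds were 2.82 on chromosome 2 (29394214 to 29396199, 84 tags), 3.0 on chromosome 12 (100505875 to 100507670, 71 tags) and 3.03 on chromosome 8 (67492296 to 67493895, 64 tags). Over all unmatched peaks, tags and length had a Spearman correlation of 0.78 and tags and fold one of -0.32, as descriptions within 1 library.

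The densest unmatched peaks, the shortest one among them, were of another kind. The shortest, on chromosome 8 (19758354 to 19758995), packed 72 tags into 642 bp, or 112 tags per kb, at a fold of 3.55. Its implied background of 31.6 tags per kb was the highest of the class, another 5hmC_C peak lay 89 bp away, and 11 lay within 50 kb. The next in density were both on chromosome 6, at 114450302 to 114451250 (93.8 tags per kb, 3.40-fold) and 47689073 to 47690084 (91.9 tags per kb, 4.97-fold), with implied backgrounds of 27.6 and 18.5. Without an input library, what part of such dense tags comes from 5hmC was not tested. The second shortest, on chromosome 15 (12802686 to 12803351), differed from these. It held 48 tags in 666 bp at 12.25-fold with an implied background of 5.88. The third, on chromosome 8 (23241065 to 23241770), held 42 tags in 706 bp at 5.71-fold.

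Close to the thresholds, the counts of peaks were as follows. There were 250 unmatched peaks of 40 tags, and 277 peaks of 39 tags met the distance rule. Totals of 5hmC_C peaks at single tag counts were not worked out, so no share stands beside these counts. The first 2 with 40 tags, both on chromosome 1 (4771323 to 4772292 and 12776263 to 12777147), had folds of 4.55 and 4.77, and the first 2 with 39 tags, also there (4900434 to 4901790 and 20904267 to 20905433), 4.29 and 4.21. At the upper bound there were 8 peaks of 99 tags, and just past it 2 of 100 tags, on chromosome 8 (120181234 to 120183568, 5.10-fold) and chromosome 11 (78038563 to 78040965, 5.46-fold). In distance, 374 peaks lay 5001 to 6000 bp from a 5hmC_V peak and 396 lay 4001 to 5000 bp away. Nearest inside were chromosome 3 (33814998 to 33816018, 5001 bp, 6.02-fold) and chromosome 14 (105970781 to 105972228, 5002 bp, 5.97-fold). Nearest outside were chromosome 15 (95845318 to 95846888, 4999 bp, 5.51-fold) and chromosome 1 (190845554 to 190846542, 4998 bp, 6.87-fold).

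Read the other way round, the same rule gave a class that also had a lower median fold than the overlapping peaks of its list. With the lists exchanged, 4590 5hmC_V peaks of 40 to 99 tags had no 5hmC_C peak within 5000 bp and 8672 overlapped one. Their median folds were 5.57 and 7.04, a log2 ratio of -0.34, beside -0.30 in the 5hmC_C list. The same tag range is a larger share of the shallower library, so these counts are not a comparison of the 2 conditions. No share of all 5hmC_V peaks of this tag range was worked out.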

How the data were processed

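Peak lists of 2 libraries were used. Per the submitters' processing notes, reads were aligned with BWA 0.5.9-r16 to mm9 and peaks called with MACS 1.4.2. Per the file headers, each list was called on 1 library with no control, at a p cutoff of 1e-05, with a regional background over 10000 bp and 1 tag kept per position. The deposited tag counts are raw and unscaled. The deposited score is 10 times the −log10 of p, and the deposited fold enrichment is a ratio to the caller's background. The authors' caller worked out both from the list's own library.

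The gap between 2 peaks was the distance between their nearest edges. Medians carry 95% order-statistic intervals, shares Clopper-Pearson intervals and tag counts exact Poisson intervals. Kept tags per library set the depth, and tags carry no molecular identifiers. Intervals cover counting error, or the error of a median taken over peaks. They cover no variation between libraries, since each group is 1 library. Windows of 1 Mb took peaks by midpoint, and neighbours were counted between midpoints. The code was tested on simulated lists with known gaps.

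The rule, the classes and the named regions were chosen with earlier results of these data known. Named were the extremes of the class in fold (5 highest, 3 lowest), tags, score, distance, length, density and members within 1 Mb, and peaks beside each threshold. Other regions were named after their values were seen: the fullest windows and the 2 stretches with 5 unmatched peaks. Alternatives were other distances, tag bounds, cutoffs and overlaps. Planned sequence and gene comparisons were not run, since they need an mm9 genome. Python 3.11.15, pandas 2.3.3, NumPy 2.4.6, SciPy 1.17.1 and matplotlib 3.10.9 were used.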

Additional observations from a re-analysis of the deposited data

Results flagged for a closer look

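Peaks outside the rule's chromosomes and tag range also lacked a 5hmC_V counterpart. On chromosome X, 16 of 314 5hmC_C peaks of 40 to 99 tags had no 5hmC_V peak within 5000 bp (5.10%, Clopper-Pearson 2.94% to 8.14%), a lower share than on any of the 19 autosomes. Their median fold was 6.23, against 9.41 for the 284 chromosome X peaks that overlapped a 5hmC_V peak. Among autosomal 5hmC_C peaks of 100 tags or more, 214 of 1071 were unmatched (20%, 17.6% to 22.5%), with up to 531 tags. Their median fold was 3.90, against 4.90 for the 779 that overlapped.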

How the results depend on the processing

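Chosen after seeing the data were 3 alternatives: the exchange of the lists, the weighting to equal tags and the removal of peaks of high background. The number of unmatched peaks was 4055, beside 9139 overlapping ones. With a distance of 10000 bp it was 2503, beside 9139. From 30 tags it was 8126, beside 15253, and from 50 tags 2054, beside 5407. With a p of at most 1e-10 it was 624, beside 4903, and with a fold of at least 10 it was 42, beside 980. When only 5hmC_V peaks of a p of at most 1e-10 counted as near or overlapping, it was 10327, beside 4249. Tag bounds and cutoffs also change how many peaks are tested, so the counts alone do not show a change in matching. The log2 ratio of median lengths, 0.00, was -0.04 from 30 tags, 0.04 from 50 tags, -0.03 at a fold of at least 10, 0.06 with equal tags and 0.07 with the lists exchanged. That of the folds, -0.30, was -0.26 from 30 tags, -0.21 at the stricter p and -0.01 at a fold of at least 10, where the cutoff itself bounds both classes and 42 unmatched peaks remain, and it was -0.34 with the lists exchanged. That of the densities, -0.08, was -0.10 at that fold and -0.13 with the lists exchanged. The excess of 1 in the median number of 5hmC_C peaks within 50 kb was 0 with a distance of 10000 bp, 0.5 from 30 tags and 0 at the stricter p. The other 37 of 57 values stayed within 1.5 times the count or within the interval of the median. Where a value moved, the cause was not tested. No paired analysis was possible because there is a single library in either group, and leaving one out was not possible. The sequence alternatives were not run.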

Other observations

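Some unmatched peaks had a close companion. In 123 of them (3.03%, Clopper-Pearson 2.53% to 3.61%) another 5hmC_C peak lay within 1000 bp, against 4.79% (4.36% to 5.25%) of the overlapping peaks. The share was 8.25% of peaks with a 5hmC_V peak within 5000 bp but no overlap, and 5.89% of all autosomal 5hmC_C peaks. A companion that overlaps a 5hmC_V peak mostly puts that peak within 5000 bp, which the rule leaves out. The shares are thus not on a like footing, and no lack of companions is read from them. The companion was itself unmatched and in the tag range in 54 cases, and it held fewer than 40 tags in 60. Companions held 15 to 174 tags, with a median of 41.

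Summits of the unmatched peaks lay less often near the middle. With each peak cut into 3 equal parts, the summit fell in the central part of 1927 unmatched peaks (47.5%, 46.0% to 49.1%), of 53.5% (52.5% to 54.6%) of the overlapping peaks and of 69.2% of all autosomal 5hmC_C peaks, most of which are shorter. The median length of all was 780 bp.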
